A study of Mus musculus with 20 samples.

Results

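A set of 10 genes of LXR-driven cholesterol handling and of neighbouring lipid pathways were followed in sorted mouse type 1 conventional dendritic cells (cDC1s): Nr1h3, Abca1, Abcg1, Apoe, Mylip, Srebf1, Scd2, Lpl, Cd36 and Pparg. They were chosen by name, with earlier results of these data known. Each matched 1 row in each of the 3 read-count tables. That is 10 of 54532 genes in the EpoR fraction table, 10 of 47729 in the treatment and 10 of 55487 in the tissue table. cDC1s are the dendritic cells that carry XCR1 and present captured antigen to CD8 T cells. RNA was sequenced from 20 libraries in 8 groups.

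In the first pair of groups, cDC1s sorted as XCR1+CD8a+ came from wild-type C57BL/6 animals, either on day 15 of TLI/ATS (2 libraries) or untreated (2 libraries). TLI/ATS combines irradiation of the lymphoid tissues with a serum that depletes T cells. The second pair was the EpoR+ and EpoR- fractions of XCR1+CD8a+ cDC1s from EpoR-tdTomato reporter mice (2 libraries each), in which red fluorescence marks expression of the erythropoietin receptor; both fractions came from TLI/ATS-treated animals on day 15, so neither is an untreated state. The other 4 groups had 3 libraries each and crossed tissue with genotype. Lymph node migratory XCR1+SIRPa- cDC1s and spleen CCR7+XCR1+SIRPa- cDC1s came from Epor-Xcr1-Cre conditional knockouts (cKO), in which Cre made by XCR1-expressing cells deletes Epor, and from Eporflox/flox controls. The labels do not say whether controls carried Cre, so an effect of Cre itself and of losing Epor cannot be told apart. The labels also do not say that the libraries of a group came from separate animals, so p-values measure the spread between these samples, which may be technical.

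LXRs are nuclear receptors that pair with RXR and are switched on by oxysterols, the oxidised cholesterol that builds up when a cell takes in cholesterol-rich debris. In phagocytes they raise the genes that move cholesterol out of the cell, lower its uptake, and feed fatty acid synthesis through SREBP-1c. PPARG is a related receptor for fatty acids that drives lipid uptake and storage genes. Among the 10 genes, Nr1h3 encodes LXR alpha, Abca1 and Abcg1 the pumps that load cholesterol onto lipoproteins, Apoe the apolipoprotein that accepts it, and Mylip the ubiquitin ligase IDOL that limits lipoprotein uptake. Srebf1 encodes SREBP-1, Scd2 a stearoyl-CoA desaturase, Lpl the lipase that frees fatty acids from lipoproteins, Cd36 a fatty acid and oxidised-lipoprotein receptor, and Pparg the receptor PPARG. In the GENCODE annotation of build GRCm38 the genes on the minus strand were Nr1h3 at chr2:91184061-91202834, Abca1 at chr4:53030787-53159895, Apoe at chr7:19696109-19699188, Srebf1 at chr11:60199089-60222581 and Cd36 at chr5:17781690-17888801. Those on the plus strand were Abcg1 at chr17:31057675-31117988, Mylip at chr13:45389742-45412022, Scd2 at chr19:44293674-44306864, Lpl at chr8:68880491-68907448 and Pparg at chr6:115360951-115490399. All are protein-coding, and the counts cover their exons.

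Promoter windows, from 250 bases before to 50 bases after a gene start in the RefSeq table of build GRCm38.p6, were found for 7 of the 10 genes and made 14 windows; Abcg1, Lpl and Scd2 were not matched. The 3 windows below are shown because they hold the elements named in the text for Abca1 and Srebf1, both textbook LXR targets, and for Apoe, the member with the highest level in the data. Each is written 5′ to 3′ on the gene's own strand, which is minus for all 3, and capitals mark the motif matches.
Abca1, chr4:53159846-53160145: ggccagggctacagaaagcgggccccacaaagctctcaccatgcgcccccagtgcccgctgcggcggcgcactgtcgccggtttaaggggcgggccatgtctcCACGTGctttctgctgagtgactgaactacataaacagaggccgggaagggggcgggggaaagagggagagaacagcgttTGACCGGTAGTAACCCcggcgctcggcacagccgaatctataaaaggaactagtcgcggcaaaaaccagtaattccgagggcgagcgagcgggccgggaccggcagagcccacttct
Srebf1, chr11:60210422-60210721: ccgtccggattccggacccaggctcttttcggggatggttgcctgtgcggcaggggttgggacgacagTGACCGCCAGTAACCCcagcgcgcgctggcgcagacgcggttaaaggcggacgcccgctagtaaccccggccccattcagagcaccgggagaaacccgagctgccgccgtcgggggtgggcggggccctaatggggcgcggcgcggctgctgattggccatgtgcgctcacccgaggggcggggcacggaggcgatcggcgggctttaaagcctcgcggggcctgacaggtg
Apoe, chr7:19699139-19699438: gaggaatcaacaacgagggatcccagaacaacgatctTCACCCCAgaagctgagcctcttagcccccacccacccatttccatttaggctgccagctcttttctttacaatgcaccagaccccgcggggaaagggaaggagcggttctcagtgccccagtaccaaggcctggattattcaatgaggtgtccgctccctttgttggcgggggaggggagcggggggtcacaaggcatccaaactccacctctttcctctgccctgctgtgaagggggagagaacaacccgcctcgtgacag

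LXR with RXR binds a DR4 element, 2 copies of the hexamer AGGTCA on the same strand spaced by 4 bases. Both strands were searched. An exact DR4 was in 0.0152% of 32851 windows of all genes and in none of the 14, and a DR4 with at most 2 mismatches over its 12 hexamer bases was in 3.02% of all windows and again in none of the 14. Allowing 3 mismatches, a width chosen after the narrower searches had been seen, gave matches in 21.9% of all windows and in 3 of the 14. Abca1 had TGACCGGTAGTAACCC from -67 to -52 of its start and Srebf1 had TGACCGCCAGTAACCC from -182 to -167 of its most downstream annotated start. Read on the opposite strand they are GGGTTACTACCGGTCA and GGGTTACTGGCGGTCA. The third match, in a Pparg window, overlapped a single AGGTCA. The Apoe window held the sterol element core TCACCCCA, present in 1.56% of all windows, and the Abca1 window also held the E-box CACGTG, present in 7.15%. The single hexamer AGGTCA, in 16.3% of all windows, was found in 1 Cd36 and 2 Pparg windows, and DR1, the same hexamers spaced by 1 base, in none of the 14 and in 0.0396% of all.

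Facts of the libraries that touch the results come first. Total counts were 33.7 to 40.1 M in the EpoR fractions, 40.6 to 77.6 M in the treatment set and 26.6 to 49.7 M in the tissue set. Levels are given as CPM, the count relative to the TMM-scaled library size. A count of 3, the upper limit that a count of 0 allows, was worth 0.0384 to 0.12 CPM depending on the library, which covers counting error only. Epor itself had 525 and 657 counts in EpoR+ and 4 and 11 in EpoR- libraries, 236 and 127 after TLI/ATS and 0 and 0 in untreated cells. It had 0, 0 and 0 counts in lymph node cKO against 24, 28 and 4 in lymph node control libraries, and 0, 2 and 0 in spleen cKO against 1, 0 and 6 in spleen control libraries, so loss in spleen was not detectable at this depth. The EpoR+ libraries carried macrophage markers at high levels beside those of their cDC1 label. The sum of 16 macrophage markers was 24427 to 24847 CPM in EpoR+ against 456 to 460 CPM in EpoR- cells, and the 4 defining ones (Adgre1, Csf1r and Fcgr1 among them) summed to 4581 to 4671 CPM in EpoR+ against 59.1 to 68.8 CPM in EpoR- cells. Over the same libraries 12 cDC1 markers summed to 7947 to 9442 CPM in EpoR+ and 16914 to 18630 CPM in EpoR- cells. Sirpa, a receptor of macrophages and cDC2s that cDC1s largely lack, averaged 1789 ± 78.3 CPM in EpoR+ and 29.1 ± 6.24 CPM in EpoR- cells (SD, n = 2 each). Its list of 9 cDC2 and monocyte markers summed to 2866 to 2899 CPM in EpoR+ and 681 to 720 CPM in EpoR- cells. Of these, 5 were called higher and 1, Ccr2, lower. Stromal and endothelial markers summed to 301 to 317 CPM in EpoR+ and 97.6 to 124 CPM in EpoR- cells, with 2 of 8 tested called higher. Of all genes tested in this comparison, 11.9% were called higher and 4.75% lower. In bulk samples such as these, fewer cells of a type and less RNA per cell cannot be told apart.

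**Figure D1:**
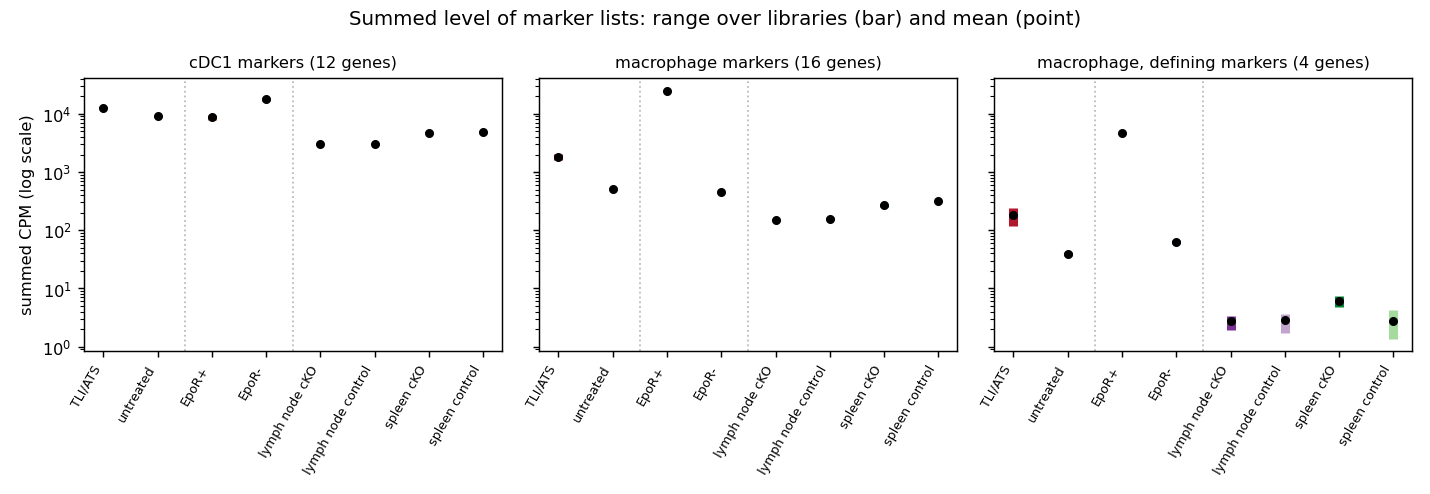
Summed CPM (log scale) of the cDC1, macrophage and defining macrophage marker lists in each of the 8 groups; bars span the lowest to the highest library, points are group means, and dotted lines part the 3 tables, between which levels are not compared. The macrophage lists are higher in EpoR+ than in EpoR- cells and higher after TLI/ATS than in untreated cells.

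The EpoR+ against EpoR- comparison asked how cDC1s that carry the erythropoietin receptor differ from those that do not. The receptor Nr1h3, the efflux genes Abca1, Abcg1 and Apoe, the lipase Lpl, the receptor Pparg and Srebf1 were higher in EpoR+ cells, and Cd36 was lower. Of the 10 genes, 7 were called higher (background: 11.9% of 15627 genes called higher) and 1 was called lower (background 4.75%). Calls are edgeR quasi-likelihood tests with Benjamini-Hochberg adjusted p under 0.05 over all genes tested. Non-overlap of groups is given in all comparisons as a description only, since its share over all genes was not counted. The members' median log2 fold change was 2.37, beside 0.02 over all genes tested.

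Nr1h3 had 165 and 200 CPM in EpoR+ libraries, against 1.74 and 3.75 CPM in EpoR- libraries. Both EpoR+ values lay far above both EpoR- values (log2 fold change 6.06 ± 0.45 SE, n = 2 each, edgeR adjusted p = 0.0027). Pparg had 98.3 and 96.6 CPM in EpoR+ and 9.88 and 8.48 CPM in EpoR- libraries (log2 fold change 3.41 ± 0.14, edgeR adjusted p = 0.000121). Both receptor genes were low in EpoR- cells and well expressed in EpoR+ cells, with no overlap. Srebf1 was closer, with 142 and 139 CPM in EpoR+ and 95.3 and 85.1 CPM in EpoR- libraries (log2 fold change 0.64 ± 0.11, edgeR adjusted p = 0.0168). Its call was lost without EpoR+ replicate 1 (adjusted p = 0.103), EpoR+ replicate 2 (0.0678) or EpoR- replicate 2 (0.0527).

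Abca1 had 236 and 173 CPM in EpoR+ libraries, against 3.38 and 2.74 CPM in EpoR- libraries (log2 fold change 6.06 ± 0.24, edgeR adjusted p = 0.000114). Abcg1, its partner pump, had 349 and 326 CPM in EpoR+ and 158 and 110 CPM in EpoR- libraries (1.33 ± 0.19, edgeR adjusted p = 0.00827). Abca1 was thus low in EpoR- cells, while Abcg1 was well expressed in both fractions. Apoe had 3061 and 3207 CPM in EpoR+ and 112 and 104 CPM in EpoR- libraries (4.86 ± 0.11, edgeR adjusted p = 2.62e-05). Mylip had 40.7 and 45.7 CPM in EpoR+ and 19.7 and 32.8 CPM in EpoR- libraries, groups that did not overlap but did not pass the test (0.72 ± 0.26, edgeR adjusted p = 0.14).

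Lpl had 306 and 251 CPM in EpoR+ libraries, against 6.05 and 4.79 CPM in EpoR- libraries (log2 fold change 5.68 ± 0.20, edgeR adjusted p = 7.45e-05). Cd36 went the other way, with 280 and 220 CPM in EpoR+ and 498 and 421 CPM in EpoR- libraries (-0.88 ± 0.16, edgeR adjusted p = 0.0186). The Cd36 call was lost without EpoR+ replicate 2 (adjusted p = 0.0533). The desaturase gene Scd2 overlapped between the fractions, with 271 and 208 CPM in EpoR+ and 367 and 258 CPM in EpoR- libraries (-0.38 ± 0.22, edgeR adjusted p = 0.324). Without EpoR- replicate 2, Mylip was also called (1.12, adjusted p = 0.00386).

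**Figure D2:**
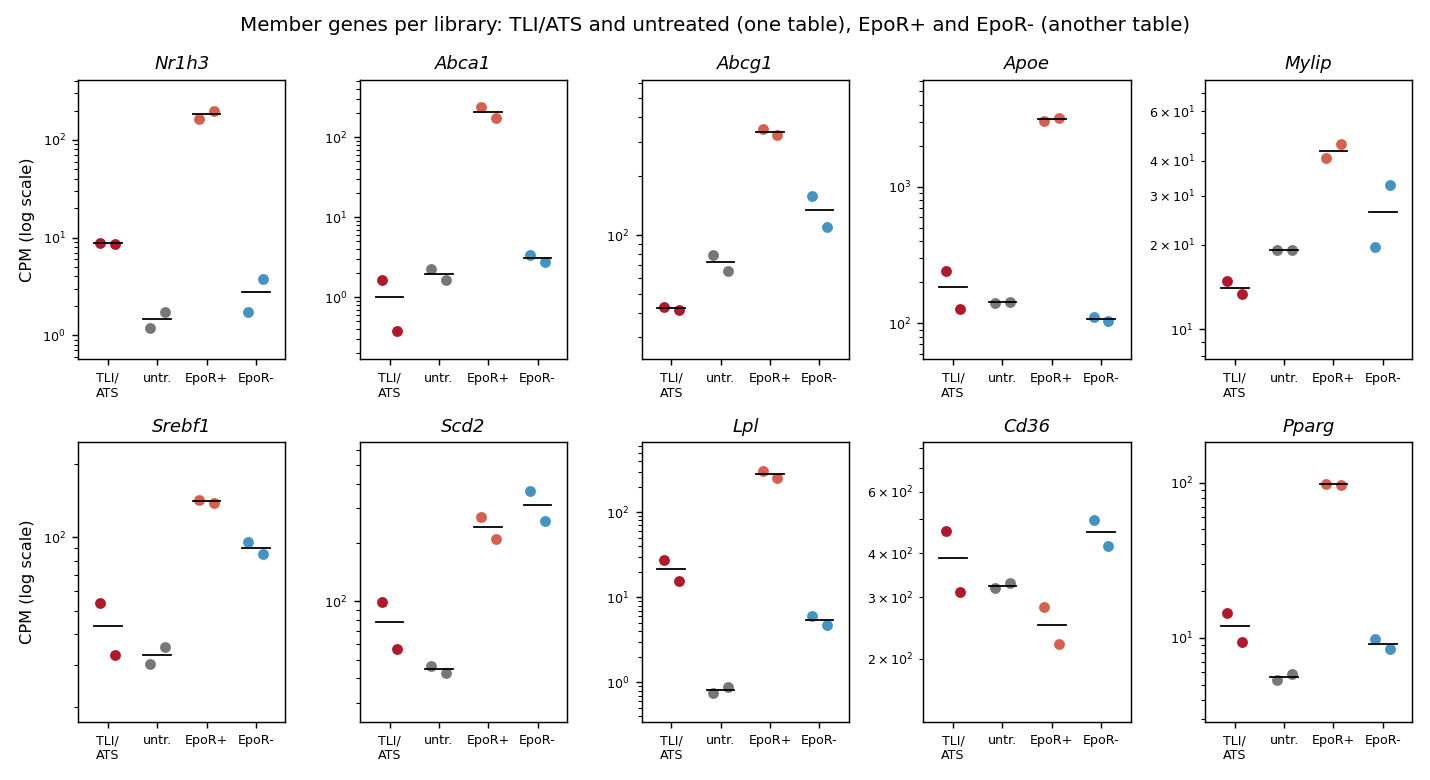
CPM (log scale) of each of the 10 genes in every TLI/ATS, untreated, EpoR+ and EpoR- library; points are libraries and lines group means, and the first pair and the second pair of groups come from separate tables that are not compared. Nr1h3, Abca1, Apoe, Lpl and Pparg stand far apart between EpoR+ and EpoR- cells, and Nr1h3 and Lpl between TLI/ATS and untreated cells.

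Per transcript length, as TPM, the order of the genes differed between the fractions. In EpoR+ cells Apoe led at 4271 ± 274 TPM, followed by Abcg1 at 242 ± 3.94, Nr1h3 at 212 ± 35.6 and Cd36 at 202 ± 28 TPM (SD, n = 2). Nr1h3 did not differ beyond the spread from either neighbour. The length deposited for Abcg1 was shorter, relative to that of Apoe, for the EpoR fractions than for the tissue libraries. EpoR+ replicate 1 had 245 TPM at 349 CPM for Abcg1 and 4077 TPM at 3061 CPM for Apoe. Lymph node cKO replicate 1 had 167 TPM at 562 CPM for Abcg1 and 47.5 TPM at 46.8 CPM for Apoe. The second place of Abcg1 in EpoR+ cells thus depends on that length. In EpoR- cells Cd36 led at 363 ± 30.2 TPM, followed by Scd2 at 162 ± 34.3 and Apoe at 144 ± 2.08 TPM, which did not differ beyond their spread, and Lpl and Abca1 came last at 1.47 ± 0.189 and 0.836 ± 0.0943 TPM.

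Other genes of these pathways, from 7 lists, were mostly higher in EpoR+ cells where they were called. Of 81 tested, 31 were called higher and 4 lower, shares to be read beside the 11.9% and 4.75% of all genes. LXR's partner Rxra was the 1 called of 8 receptors and cofactors (325 CPM in EpoR+ and 95.6 CPM in EpoR- cells, log2 fold change 1.77 ± 0.11), while Nr1h2, which encodes LXR beta, was not called. Of 10 other LXR targets tested, 7 were called higher, led by Mertk, a receptor for apoptotic cells (6.80 ± 0.39), Cd5l, a macrophage survival factor (6.49 ± 0.12), the apolipoprotein gene Apoc1 (6.34 ± 0.31) and the phospholipid transfer protein gene Pltp (4.81 ± 0.14), while Fasn, fatty acid synthase, was called lower (-0.83 ± 0.14). Of Pltp's exon bases 19.3% are shared with another gene.

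The list counts that follow stand beside 11.9% of all genes called higher and 4.75% called lower. Of 18 tested PPARG targets and fatty acid genes, 8 were called higher. They were led by the fatty acid binding protein genes Fabp4 (5.68 ± 0.64) and Fabp5 (3.39 ± 0.23) and by Angptl4, an inhibitor of lipoprotein lipase (3.35 ± 0.36). Lipe, hormone-sensitive lipase, was called lower (-0.56 ± 0.12). Of 13 lipoprotein and scavenger receptors, 10 were called higher, led by Marco (6.42 ± 0.86), Lrp1, which binds ApoE (5.57 ± 0.13), Stab2 (5.35 ± 0.30) and Stab1 (4.99 ± 0.26). Among genes of lysosomal cholesterol release, Nceh1 (2.34 ± 0.22), Npc1 (1.59 ± 0.12) and Lipa (0.98 ± 0.13) were called higher, 3 of 10 tested. Of 11 fatty acid synthesis genes, Fads1 was called higher (1.14 ± 0.12) and Fasn lower. Of 13 genes of sterol synthesis and SREBP processing, 1 was called higher, Insig1 (0.88 ± 0.16), and 2 were called lower, among them Srebf2, which encodes SREBP-2 (-0.64 ± 0.12). Of the 35 calls, 19 were kept whichever library was left out; among the genes named, Fabp4, Marco, Fasn, Lipe, Insig1 and Srebf2 lost theirs in at least 1 such fit. The 16 macrophage markers were all called higher in the same comparison, with a median log2 fold change of 6.48, and 11 of 12 cDC1 markers were called lower (median -1.10). Erythroid and platelet markers summed to 1573 to 1919 CPM in EpoR+ and 154 to 245 CPM in EpoR- cells. The part that RNA of macrophages or erythroid cells has in these results was not tested.

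The TLI/ATS against untreated comparison asked what the tolerance-inducing regimen does to cDC1s. Lpl and Nr1h3 were higher after TLI/ATS, and no other member passed the edgeR test. That is 2 of 10 called higher, against a background of 0.499% of 17236 genes. DESeq2 also called Pparg higher (adjusted p = 0.0246) and Abcg1 lower (adjusted p = 0.00915). The members' median log2 fold change was 0.38, beside 0.02 over all genes tested.

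Lpl had 27.2 and 15.7 CPM after TLI/ATS, against 0.746 and 0.875 CPM in untreated libraries (log2 fold change 4.72 ± 0.39 SE, n = 2 each, edgeR adjusted p = 0.011). Nr1h3 had 8.85 and 8.55 CPM after TLI/ATS and 1.18 and 1.73 CPM in untreated libraries (2.58 ± 0.31, edgeR adjusted p = 0.0246). Neither gene overlapped between the groups, and both calls held whichever library was left out. Pparg had 14.5 and 9.43 CPM after TLI/ATS and 5.33 and 5.84 CPM in untreated libraries (1.10 ± 0.29, edgeR adjusted p = 0.157). Scd2 had 99.2 and 56.4 CPM after TLI/ATS and 46.6 and 42.7 CPM in untreated libraries (0.80 ± 0.30, edgeR adjusted p = 0.308). Like Pparg, Scd2 lay above both untreated values in both treated libraries without passing the test. How many of all genes would do so was not counted.

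Neither efflux pump passed the edgeR test. Abcg1 had 42.9 and 41.4 CPM after TLI/ATS, against 79 and 65.8 CPM in untreated libraries (-0.78 ± 0.18, edgeR adjusted p = 0.116). Abca1 had 1.64 and 0.375 CPM after TLI/ATS and 2.26 and 1.63 CPM in untreated libraries, from 128 and 23 counts after TLI/ATS and 109 and 69 counts in untreated libraries (-0.94 ± 0.73, edgeR adjusted p = 0.64). The Abcg1 groups did not overlap, while those of Abca1 did. Mylip had 14.8 and 13.3 CPM after TLI/ATS and 19.2 and 19.2 CPM in untreated libraries (-0.45 ± 0.20, edgeR adjusted p = 0.375).

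In the other 3 members the treated libraries differed more from each other than the untreated ones. Apoe had 242 and 127 CPM after TLI/ATS, on either side of 142 and 144 CPM in untreated libraries (0.37 ± 0.33, edgeR adjusted p = 0.693). Cd36 had 464 and 311 CPM after TLI/ATS and 319 and 328 CPM in untreated libraries (0.26 ± 0.24, edgeR adjusted p = 0.699). Srebf1 had 53.6 and 32.9 CPM after TLI/ATS and 30.2 and 35.4 CPM in untreated libraries (0.40 ± 0.28, edgeR adjusted p = 0.611). In all 3 the first treated library was above and the second within or below the untreated values. Without TLI/ATS replicate 1 the log2 fold change of Apoe was -0.17, and without TLI/ATS replicate 2 it was 0.76. In these fits the lone treated library is assumed to vary like the untreated ones, so their calls are not counted here. Per length, Cd36 (246 ± 111 TPM after TLI/ATS, 209 ± 7.19 TPM untreated) and Apoe (200 ± 120 TPM after TLI/ATS, 155 ± 3.99 TPM untreated) led in both groups, within their spread after treatment. Abca1 was among the lowest (0.234 ± 0.231 TPM after TLI/ATS, 0.435 ± 0.0933 TPM untreated; SD, n = 2 each).

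Of 81 other pathway genes tested, 2 were called higher after TLI/ATS (0.499% of all genes) and 2 lower (2.2% of all genes). Cd5l averaged 31.6 CPM after TLI/ATS and 2.89 CPM in untreated cells (3.45 ± 0.37, edgeR adjusted p = 0.021), and Fabp4 1.53 CPM after TLI/ATS and 0.108 CPM in untreated cells (3.79 ± 0.53, edgeR adjusted p = 0.0372). Pltp averaged 3.7 CPM after TLI/ATS and 72 CPM in untreated cells (-4.28 ± 0.33, edgeR adjusted p = 0.00931), and Gpr183, the oxysterol receptor EBI2 that guides lymphocytes and dendritic cells, 32.5 CPM after TLI/ATS and 83.9 CPM in untreated cells (-1.37 ± 0.19, edgeR adjusted p = 0.036). The Fabp4 call was lost without untreated replicate 2 (adjusted p = 0.0912), and that of Gpr183 without untreated replicate 1 (0.122) or 2 (0.139) or with no filter on low counts (0.0501). Macrophage markers summed to 1589 to 2018 CPM after TLI/ATS and 511 to 512 CPM in untreated cells, with 10 of 15 tested called higher, and the 4 defining ones to 118 to 242 CPM after TLI/ATS and 36 to 41.8 CPM in untreated cells. Erythroid and platelet markers summed to 1172 to 1200 CPM after TLI/ATS and 170 to 177 CPM in untreated cells. T cell markers went the other way, at 13.2 to 14 CPM after TLI/ATS and 613 to 620 CPM in untreated cells, with 8 of 8 called lower. B cell markers summed to 43.3 to 48.3 CPM after TLI/ATS and 549 to 564 CPM in untreated cells, with 7 of 7 called lower, and plasmacytoid dendritic cell markers to 227 to 257 CPM after TLI/ATS and 970 to 983 CPM in untreated cells, with 4 of 6 called lower. The 12 cDC1 markers summed to 12447 to 12865 CPM after TLI/ATS and 8975 to 9108 CPM in untreated cells, with 0 called. Langerhans cell and keratinocyte markers summed to 146 to 244 CPM after TLI/ATS and 57.5 to 62 CPM in untreated cells. Of 2 tested, 0 were called. The part that cell content had in the results for Lpl, Nr1h3 and the listed genes was not tested.

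**Figure D3:**
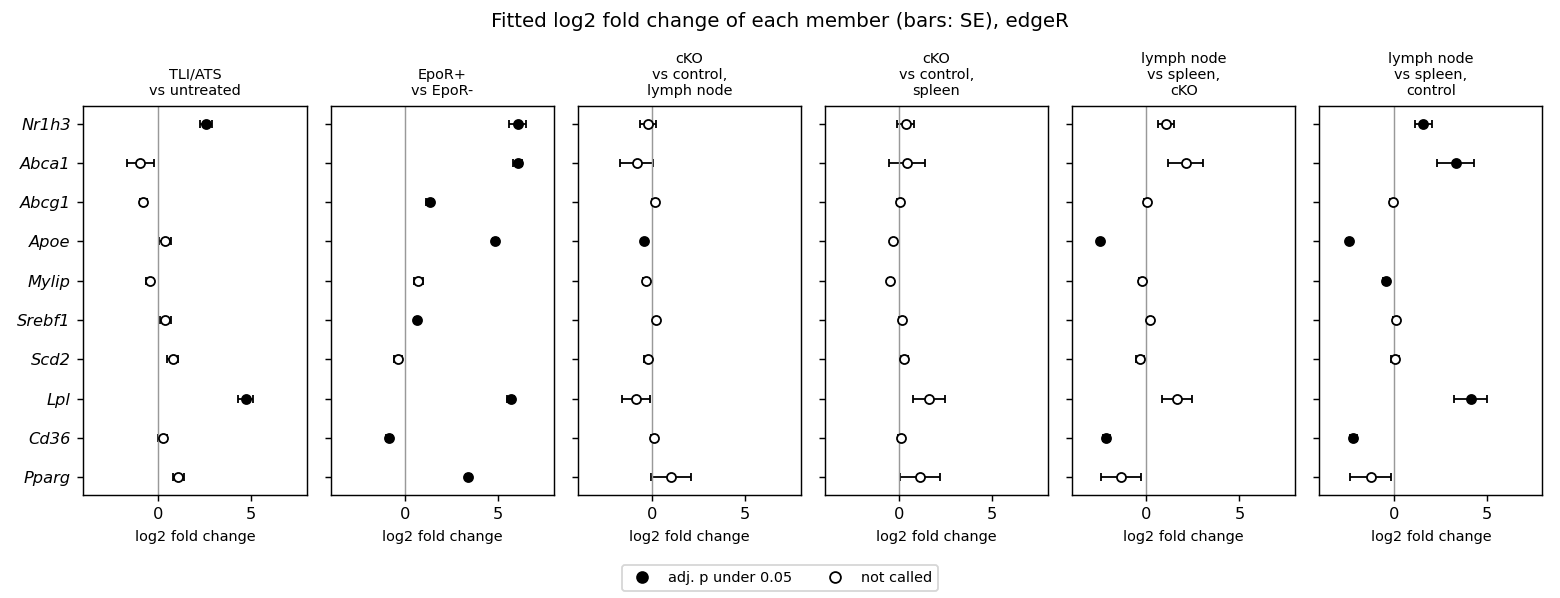
Fitted log2 fold change of each of the 10 genes (points) with its SE (bars) in 6 comparisons, the first-named group over the second; filled points passed an edgeR adjusted p under 0.05. The number of filled points is 2 for TLI/ATS, 8 for EpoR+, 1 and 0 for cKO in lymph node and spleen, and 2 and 6 for lymph node against spleen in cKO and control cells.

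The cKO against control comparisons asked what loss of Epor in XCR1-expressing cells does in each tissue. Apoe was lower in lymph node cKO cells and had lower values in spleen cKO cells, and no other member passed the test in either tissue. In lymph node Apoe had 46.8, 46.7 and 47.8 CPM in cKO libraries, against 66.1, 63 and 61.3 CPM in controls (log2 fold change -0.43 ± 0.08 SE, n = 3 each, edgeR adjusted p = 0.0284). All 3 cKO values lay below all 3 control values. That was 1 of 10 members called lower, against a background of 0.167% of 17362 genes. The direction held in every alternative, but the call was lost in a fit of those 2 groups alone (adjusted p = 0.152) and without any 1 of the 6 libraries: lymph node cKO replicate 1 (0.152), 2 (0.112) or 3 (0.108), or lymph node control replicate 1 (0.18), 2 (0.0788) or 3 (0.0546).

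In spleen Apoe had 264, 286 and 252 CPM in cKO libraries and 309, 334 and 367 CPM in controls (-0.33 ± 0.08, edgeR adjusted p = 0.0929). Mylip had 42.4, 41.3 and 44.3 CPM in spleen cKO and 56.1, 54.2 and 68.9 CPM in spleen control libraries (-0.49 ± 0.14, edgeR adjusted p = 0.151). Neither gene overlapped between the spleen groups. No member was called in spleen by edgeR, with 2 at an unadjusted p under 0.05, while DESeq2 called Apoe (-0.34, adjusted p = 0.00746) and Mylip (-0.50, adjusted p = 0.0356). By edgeR, 0.611% of all genes were called in spleen in either direction. The shares of all genes called by DESeq2 or at an unadjusted p under 0.05 are not given here. In lymph node Mylip had 38.5, 31.6 and 36.6 CPM in cKO and 40.8, 39.6 and 53.8 CPM in control libraries (-0.33 ± 0.14, edgeR adjusted p = 0.605), again without overlap.

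The difference of the cKO effect between lymph node and spleen was tested as an interaction. It was called for none of the 10 genes by edgeR or DESeq2, and edgeR called it for 0.317% of all genes. At an unadjusted p under 0.05 there was 1 member, and the share of all genes at that level was not counted. For Apoe the lymph node effect minus the spleen effect was -0.10 ± 0.12 (edgeR adjusted p = 0.789). For Lpl it was -2.50 ± 1.15 (edgeR adjusted p = 0.385), from few counts: 83, 24 and 96 in lymph node cKO, 153, 128 and 60 in lymph node control, 9, 28 and 6 in spleen cKO and 1, 6 and 5 in spleen control libraries.

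Abcg1 overlapped between cKO and control in both tissues: it had 562, 423 and 557 CPM in lymph node cKO and 361, 613 and 422 CPM in lymph node control libraries, and 490, 506 and 496 CPM in spleen cKO and 449, 420 and 569 CPM in spleen control libraries. Srebf1 had 39.8, 40.6 and 44 CPM in lymph node cKO and 39.6, 34.4 and 35.3 CPM in lymph node control libraries, groups that did not overlap but did not pass the test (0.19 ± 0.16, edgeR adjusted p = 0.915). Pparg was low throughout, with 30, 40 and 13 counts in lymph node cKO and 8, 32 and 0 in lymph node control libraries, and 98, 41 and 27 in spleen cKO and 10, 7 and 45 in spleen control libraries, and its log2 fold changes of 1.00 ± 1.09 in lymph node and 1.13 ± 1.07 in spleen were about the size of their SE. Abca1, Nr1h3, Lpl, Cd36 and Scd2 overlapped between cKO and control in both tissues. Nr1h3 had 4.34, 5.05 and 5.19 CPM in lymph node cKO and 4.85, 6.44 and 5.56 CPM in lymph node control libraries, and 1.15, 2.2 and 3.79 CPM in spleen cKO and 2.84, 1.04 and 1.69 CPM in spleen control libraries. Abca1 had 18, 39 and 99 counts in lymph node cKO and 124, 65 and 56 in lymph node control libraries, and 16, 6 and 4 counts in spleen cKO and 0, 8 and 7 in spleen control libraries. Scd2 stayed between 13.9 and 25.7 CPM in all 12 libraries.

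**Figure D4:**
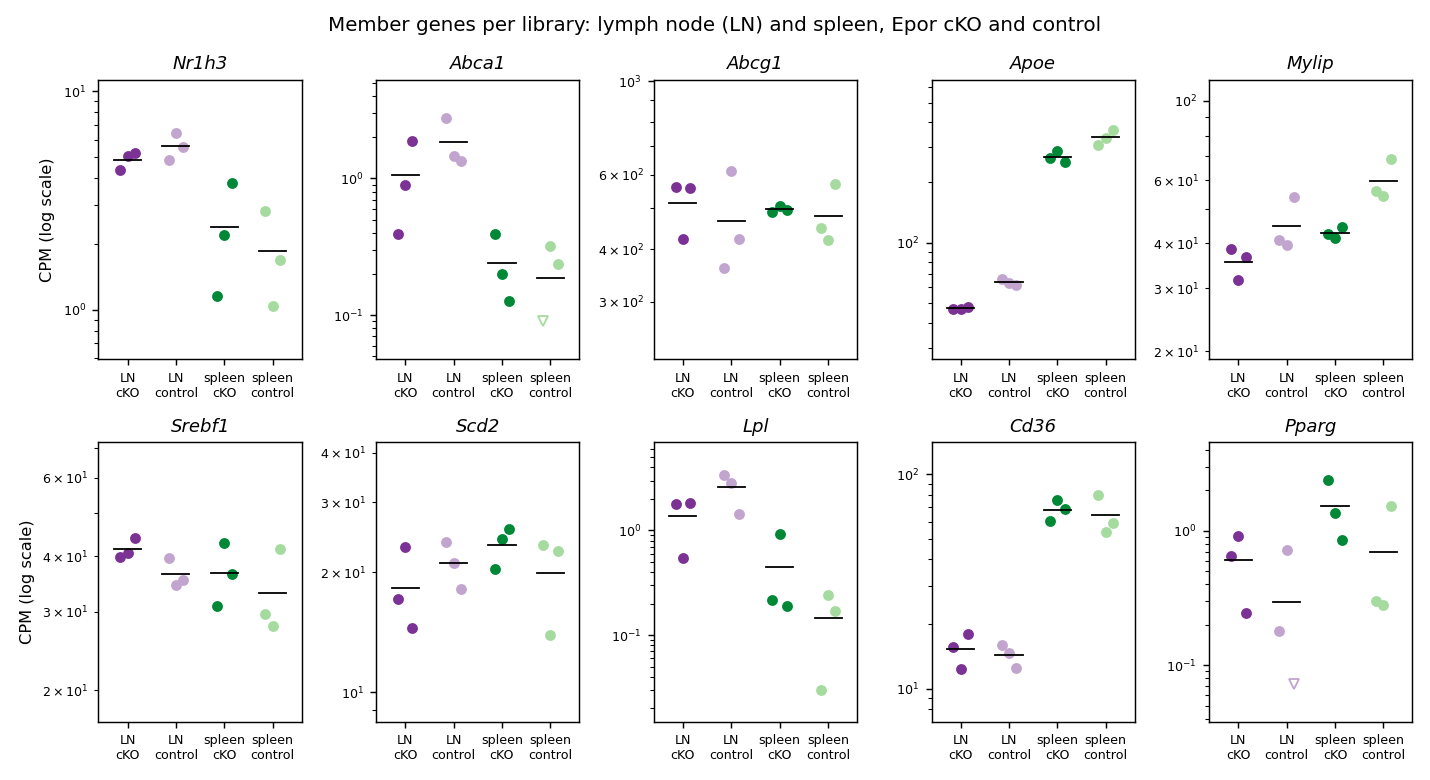
CPM (log scale) of each of the 10 genes in every lymph node (LN) and spleen library, cKO and control; points are libraries, lines group means, and open triangles mark libraries with 0 counts, drawn at their floor of 3 counts. Apoe and Cd36 lie lower in lymph node than in spleen in both genotypes, and Apoe lies lower in cKO than in control within each tissue.

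Among 79 other pathway genes tested, Hmgcs1, an enzyme of cholesterol synthesis, was the 1 called in lymph node, where 0.288% of all genes were called higher (113 CPM in cKO and 82.7 CPM in control cells, 0.45 ± 0.09, edgeR adjusted p = 0.0257), and its call was lost without any 1 of the 6 libraries (lowest adjusted p = 0.0508 without lymph node cKO replicate 2) and in a fit of those 2 groups alone (0.0667). In spleen edgeR called none of the 79, with 13 at an unadjusted p under 0.05, and DESeq2 called 4. The interaction was called for none by edgeR, with 14 at an unadjusted p under 0.05, and for 2 by DESeq2. Over all genes edgeR called 0.611% in spleen, in either direction, and 0.317% in the interaction. The shares of all genes that belong beside the unadjusted and DESeq2 counts are not given here, so those counts are a description only. In spleen the plasma cell markers moved with the genotype, summing to 2862 to 3167 CPM in cKO and 1466 to 1585 CPM in control libraries, with 3 of 6 called higher. The 16 macrophage markers summed to 251 to 288 CPM in spleen cKO and 309 to 321 CPM in spleen control libraries, while the 4 defining ones lay the other way, at 4.85 to 7.48 CPM in cKO and 1.38 to 4.3 CPM in control libraries, and the median log2 fold change of the 12 tested was 0.57, with 1 called lower. The cDC2 and monocyte markers summed to 133 to 153 CPM in spleen cKO and 98 to 116 CPM in spleen control libraries, and erythroid and platelet markers to 63 to 69.2 CPM in cKO and 88.3 to 105 CPM in control libraries, with none called in either list. In lymph node the macrophage markers summed to 147 to 149 CPM in cKO and 149 to 170 CPM in control libraries, and the defining ones to 1.94 to 3.43 CPM in cKO and 1.72 to 3.6 CPM in control libraries. T cell markers summed to 129 to 134 CPM in lymph node cKO and 183 to 204 CPM in lymph node control libraries, and cDC2 and monocyte markers to 74.4 to 96.6 CPM in cKO and 106 to 116 CPM in control libraries; neither list overlapped, and no gene of either was called. The part of these cells in the Apoe and Mylip values was not tested.

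Lymph node against spleen compared cDC1s of different tissues and gates, since the lymph node cells were gated as migratory and the spleen cells on CCR7, so tissue and gate cannot be told apart. Both comparisons, in control and in cKO mice, use the same libraries as the genotype comparisons. Apoe and Cd36 were lower in lymph node in both genotypes. In control mice Lpl, Abca1 and Nr1h3 were higher in lymph node and Mylip lower. Among control cells 3 of the 10 genes were called higher, against a background of 21% of 17362 genes, and 3 lower, against 20.3%; among cKO cells 2 were called lower, against 15.3%. The tissues thus differed in a large share of all genes, and the members' median log2 fold changes of -0.11 (cKO) and 0.02 (control) lay beside 0.00 (cKO) and -0.01 (control) over all genes.

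Apoe had 66.1, 63 and 61.3 CPM in lymph node control libraries, against 309, 334 and 367 CPM in spleen control libraries (log2 fold change -2.40 ± 0.09 SE, n = 3 each, edgeR adjusted p = 3.1e-11), and the cKO value was -2.51 ± 0.09 (edgeR adjusted p = 3.41e-11). Cd36 had 15.9, 14.7 and 12.4 CPM in lymph node control and 79.9, 53.9 and 59.4 CPM in spleen control libraries (-2.17 ± 0.18, edgeR adjusted p = 1.65e-07). In cKO cells Cd36 had 15.6, 12.3 and 17.9 CPM in lymph node and 60.5, 75.4 and 68.8 CPM in spleen (-2.16 ± 0.18, edgeR adjusted p = 2.7e-07). The apolipoprotein and the scavenger receptor thus separated the tissues without overlap in both genotypes, and their calls held in every alternative run. Mylip differed less, with 40.8, 39.6 and 53.8 CPM in lymph node control and 56.1, 54.2 and 68.9 CPM in spleen control libraries. Its groups were close (-0.42 ± 0.14, edgeR adjusted p = 0.0257), and the call was lost without lymph node control replicate 1 (adjusted p = 0.11) or 2 (0.114), without spleen control replicate 3 (0.167), in a fit of those 2 groups alone (0.0864), and with scaling by library totals alone (-0.12, adjusted p = 0.511). In cKO cells Mylip had 38.5, 31.6 and 36.6 CPM in lymph node and 42.4, 41.3 and 44.3 CPM in spleen, without overlap, and did not pass the test (-0.26 ± 0.14, edgeR adjusted p = 0.182).

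Lpl had 3.42, 2.86 and 1.45 CPM in lymph node control libraries, against 0.0302, 0.241 and 0.169 CPM in spleen control libraries (4.14 ± 0.90, edgeR adjusted p = 0.00164). Nr1h3 had 4.85, 6.44 and 5.56 CPM in lymph node control and 2.84, 1.04 and 1.69 CPM in spleen control libraries (1.59 ± 0.45, edgeR adjusted p = 0.0108). Abca1 had 124, 65 and 56 counts in lymph node control and 0, 8 and 7 counts in spleen control libraries (3.33 ± 1.00, edgeR adjusted p = 0.0147), a call lost without lymph node control replicate 1 (adjusted p = 0.0615). All 3 genes had no overlap between control tissues, at levels far under those of Apoe and Abcg1. In spleen control libraries every count of Lpl and Abca1 was under 10, the minimum count of the filter on low genes. Both genes passed that filter through their lymph node libraries, the group where they are high, so their calls are a description only. In cKO cells the same contrasts were 1.64 ± 0.79 for Lpl, 1.04 ± 0.44 for Nr1h3 and 2.11 ± 0.95 for Abca1, and did not pass the test (edgeR adjusted p = 0.136, 0.0949 and 0.109); Lpl was called without spleen cKO replicate 2 (2.76, adjusted p = 0.0388) and Nr1h3 without spleen cKO replicate 3 (1.56, adjusted p = 0.0321). The interaction above, which tests whether these contrasts differ by genotype, called none of these genes. The Nr1h3 values of the cKO tissues also did not overlap. Abcg1, Srebf1 and Scd2 overlapped between tissues in both genotypes, with log2 fold changes from -0.36 ± 0.22 (Scd2, cKO) to 0.18 ± 0.16 (Srebf1, cKO), as did Pparg. With scaling by library totals alone Srebf1 was called higher in lymph node in both genotypes (0.42, adjusted p = 0.0389 in cKO; 0.45, adjusted p = 0.0235 in control cells), and Nr1h3 in cKO cells (1.28, adjusted p = 0.0375).

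Per length the leading gene differed by tissue. Abcg1 led in lymph node, at 165 ± 5.04 TPM in cKO and 163 ± 22.1 TPM in control cells, ahead of Apoe at 52.2 ± 6.68 TPM in cKO and 78.2 ± 12 TPM in control cells (SD, n = 3 each). Apoe led in spleen, at 154 ± 25.3 TPM in cKO and 235 ± 59.5 TPM in control cells, ahead of Abcg1 at 83.8 ± 9.31 TPM in cKO and 96.3 ± 16.1 TPM in control cells. In CPM the order in spleen was the reverse. Abcg1 averaged 497 CPM in cKO and 479 CPM in control cells, and Apoe 267 CPM in cKO and 336 CPM in control cells. The lead of Apoe in spleen thus depends on the lengths deposited with the tissue libraries. In each of the 4 groups the gap between the first and the second gene was larger than their SDs. Lpl, Abca1 and Pparg were lowest, each under 1 TPM in all 4 groups.

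Of 79 other pathway genes tested, 12 were called higher and 11 lower in lymph node cKO cells (14.1% and 15.3% of all genes), and 16 higher and 16 lower in lymph node control cells (21% and 20.3% of all genes). Nr1h2, encoding LXR beta, was higher in lymph node, at 206 CPM against 142 CPM in spleen among cKO cells (log2 fold change 0.54 ± 0.09) and at 217 CPM against 139 CPM in spleen among controls (0.65 ± 0.09). Of 11 tested genes of lysosomal cholesterol release, esterification and oxysterols, 1 was called higher and 2 lower in lymph node among cKO cells, and 3 higher and 2 lower among control cells. Lipa, lysosomal acid lipase, had log2 fold changes of -1.73 ± 0.16 in cKO and -1.80 ± 0.17 in control cells, and Soat1, which esterifies cholesterol, had -1.21 ± 0.21 in cKO and -1.65 ± 0.21 in control cells. Npc2, which carries cholesterol out of the lysosome, was the 1 called higher among cKO cells (0.28), a call lost without lymph node cKO replicate 2 (adjusted p = 0.0809) or spleen cKO replicate 2 (0.0709). Nceh1, which hydrolyses cholesterol esters, was called higher in control lymph node cells (2.41 ± 0.64), with 0.27 ± 0.60 in cKO cells, not called. Gpr183 was called higher there too (1.75 ± 0.35), with 0.53 ± 0.34 in cKO cells, not called. The interaction with genotype was called by edgeR for 0 of the 11 genes of this list.

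Of 18 tested PPARG targets and fatty acid genes, 5 were called higher and 1 lower in lymph node among cKO cells (14.1% and 15.3% of all genes), and 7 higher and 3 lower among control cells (21% and 20.3% of all genes). All 6 calls in cKO cells and 5 of the 10 in control cells were kept whichever library was left out; over all listed pathway genes this held for 19 of 23 calls in cKO and 23 of 32 in control cells. The transporter gene Slc27a1 had log2 fold changes of 1.58 ± 0.16 in cKO and 2.09 ± 0.17 in control cells, and the triglyceride lipase gene Pnpla2 0.72 ± 0.15 in cKO and 1.31 ± 0.15 in control cells. Mgll, monoacylglycerol lipase, was lower in lymph node (-1.01 ± 0.23 in cKO, -1.41 ± 0.23 in control cells). In sterol synthesis, 2 of 13 tested genes were called higher and 3 lower in each genotype, beside the same shares of all genes. Among the lower ones were Insig1 (-0.81 ± 0.20 in cKO, -1.05 ± 0.20 in control cells) and Hmgcs1 (-0.37 ± 0.09 in cKO, -0.97 ± 0.09 in control cells), while Idi1, an isomerase of the same pathway, was higher (0.62 ± 0.16 in cKO, 1.08 ± 0.16 in control cells). With scaling by library totals alone the cKO call of Hmgcs1 (-0.12, adjusted p = 0.317) was lost. Library totals alone moved the median log2 fold change of all genes to 0.248 in cKO and 0.279 in control cells, against 0.00291 in cKO and -0.00998 in control cells with TMM, so tissue differences are relative to the TMM centre.

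Markers of other cells also moved with tissue. The call counts that follow stand beside the shares of all genes called in lymph node against spleen. These were 14.1% higher and 15.3% lower in cKO cells, and 21% higher and 20.3% lower in control cells. T cell markers summed to 129 to 134 CPM in lymph node cKO and 29.7 to 33.8 CPM in spleen cKO libraries, and to 183 to 204 CPM in lymph node control and 26.3 to 38.5 CPM in spleen control libraries. Plasma cell markers summed to 258 to 309 CPM in lymph node cKO and 2862 to 3167 CPM in spleen cKO libraries, and to 275 to 303 CPM in lymph node control and 1466 to 1585 CPM in spleen control libraries. Erythroid and platelet markers summed to 1.32 to 1.89 CPM in lymph node cKO and 63 to 69.2 CPM in spleen cKO libraries, and to 1.23 to 1.81 CPM in lymph node control and 88.3 to 105 CPM in spleen control libraries. B cell markers summed to 8.19 to 10.2 CPM in lymph node cKO and 56 to 68.5 CPM in spleen cKO libraries, and to 7.81 to 12.7 CPM in lymph node control and 40 to 56.5 CPM in spleen control libraries. These 4 lists did not overlap between tissues in either genotype. Adipocyte markers, relevant to Lpl, Cd36 and Pparg, summed to 4.45 to 5.42 CPM in lymph node cKO and 2.36 to 2.61 CPM in spleen cKO libraries, with 0 of 2 tested called by edgeR. They summed to 5.17 to 6.82 CPM in lymph node control and 0.0803 to 2.3 CPM in spleen control libraries, with 2 of 2 tested called higher and Plin1 and Lep at 0 in lymph node control libraries. Macrophage markers summed to 147 to 149 CPM in lymph node cKO and 251 to 288 CPM in spleen cKO libraries, with 1 of 12 tested called higher and 5 lower. They summed to 149 to 170 CPM in lymph node control and 309 to 321 CPM in spleen control libraries. Of 12 tested, 3 were called higher and 5 lower. The defining ones summed to 1.72 to 3.6 CPM in lymph node control and 1.38 to 4.3 CPM in spleen control libraries. In cKO cells the defining ones did not overlap, at 1.94 to 3.43 CPM in lymph node and 4.85 to 7.48 CPM in spleen. The cDC2 and monocyte markers summed to 74.4 to 96.6 CPM in lymph node cKO and 133 to 153 CPM in spleen cKO cells. Of these 9, 6 were called lower. In control cells they summed to 106 to 116 CPM in lymph node and 98 to 116 CPM in spleen, with 1 called higher and 4 lower. Of the 12 cDC1 markers, 8 were called lower and 1 higher in lymph node control cells, with sums of 2963 to 3095 CPM against 4527 to 5159 CPM in spleen control libraries. In cKO cells 9 were called lower and 1 higher, with sums of 3052 to 3091 CPM in lymph node and 4653 to 4802 CPM in spleen. Their part in the tissue differences was not tested. As a description over the 12 tissue libraries, which fall into 2 tissues, the genes whose log2 CPM most resembled Apoe among 7934 genes were Creg1, Vcam1, Ltb, Atf3 and Zcrb1 (Pearson r 0.989 to 0.992), and those most like Nr1h3 were Ankrd9, Foxred1, Suv39h2, Carhsp1 and Gnptg (r 0.927 to 0.949).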

How the data were processed

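RNA-seq counts per gene came in 3 tables, deposited by the authors as whole-number counts without normalization. For the treatment table the submitters' processing notes name HISAT2, SAMtools, StringTie, featureCounts and GRCm38; program versions for that table are not given in the sources used here. As the file headers state, the EpoR fraction table was made by featureCounts 2.0.3 and the tissue table by featureCounts 2.0.8; the notes add HISAT2 2.1.0 for the tissue table. In both of these tables, per the file headers, each mate of a read pair is counted by itself and strand is ignored. Counting error is then understated, and reads of overlapping genes are not told apart by strand. Of each member's exon bases 0 to 3.11% are shared with another gene in GENCODE vM21. No source names molecular identifiers, so intervals and floors cover counting error only. Symbols were found for 99.8% of 54532, 98.9% of 47729 and 99.4% of 55487 identifiers.

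From the counts, each table was analysed on its own in R 4.3.3. Low genes were dropped with filterByExpr at a minimum count of 10 and a minimum total of 15, libraries were scaled by TMM and genes were tested with edgeR 4.0.16 (limma 3.58.1), quasi-likelihood with robust dispersion, with Benjamini-Hochberg adjustment over all genes tested and a threshold of 0.05. All 10 members passed the filter in each table. The tissue table was fitted on all its libraries with 1 mean per group. CPM are counts over the TMM-scaled library size. TPM were computed here from the gene lengths deposited with the tissue and EpoR fraction tables, which were also used for the treatment table by gene identifier. The fits were tested on simulated data.

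Alternatives were DESeq2 1.42.0, its size factors, no filter, a replicate block, only the 2 groups compared, each library left out, and, chosen after seeing the data, library totals without TMM, a crossed block and wider DR4 matches. Members, pathway lists and marker lists were chosen with earlier results of these data known. Named genes were the members, Epor and the sort genes, up to 4 called genes per list and direction with the largest fold change, and the 5 genes most correlated with Apoe and with Nr1h3; Nr1h2 in EpoR+ cells, and Nceh1 and Gpr183 in cKO tissues, are named although not called there. Some genes that met the rule are not reported here.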

Additional observations from a re-analysis of the deposited data

How the results depend on the processing

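Of 838 log2 fold changes of single members under all alternatives, 758 kept direction and side of the threshold, 22 gained and 18 lost a call, and 40 changed sign, none of them called in the main test or in the alternative. Of 862 values of the listed pathway genes named by rule, 780 stayed called in the same direction and 82 lost the call. Members called changed with DESeq2 to 4 for TLI/ATS (2 with edgeR) and 2 for spleen cKO (0 with edgeR). With library totals the count was 4 for lymph node against spleen in cKO cells (2 with TMM), where Nr1h3 (1.28) and Srebf1 (0.42) were added; in control cells Srebf1 (0.45) was gained and Mylip (-0.12) lost. Fitting only the 2 groups compared left 0 members for lymph node cKO (1 in the full fit). For lymph node cKO, leaving out 1 library gave 0 members in each fit. For TLI/ATS each such fit leaves 1 library in a group, so no member count is given.

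Replicate numbers are not said to pair samples. Same-numbered libraries deviated together in the EpoR fractions (r = 0.694, 2 pairs) but not after TLI/ATS (r = -0.12) and showed no common sign in the tissues (r = -0.408 to 0.255), so the block is given here only as an alternative. With a replicate block the members called were 10 for EpoR+ (8 without the block; Mylip 0.76, adjusted p = 0.0115, and Scd2 -0.37, adjusted p = 0.00414, were added), 2 for TLI/ATS, 0 for spleen and 0 for lymph node cKO (Apoe -0.43, adjusted p = 0.0983; among listed genes the call of Hmgcs1 was lost too, 0.45, adjusted p = 0.0626), and 2 in cKO and 6 in control cells for lymph node against spleen; a crossed pairing of the TLI/ATS libraries also called 2 members, and 1159 genes in all.

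Sign changes among uncalled members were, with library totals, Srebf1 -0.02 and Cd36 -0.04 in the interaction and Abcg1 0.26 in control lymph node against spleen, and with the replicate block Cd36 -0.01 and Pparg 0.37 in the interaction. With 1 library left out the ranges that crossed 0 were, for TLI/ATS, Apoe -0.17 to 0.76 and Cd36 -0.05 to 0.52; for spleen cKO, Abca1 -0.18 to 1.06, Abcg1 -0.02 to 0.22, Nr1h3 -0.14 to 0.80 and Cd36 -0.01 to 0.29; for lymph node cKO, Abcg1 -0.01 to 0.40 and Cd36 -0.04 to 0.23; for the interaction, Abcg1 -0.07 to 0.34, Srebf1 -0.18 to 0.15, Cd36 -0.19 to 0.14 and Pparg -1.40 to 1.56; for control lymph node against spleen, Abcg1 -0.29 to 0.14, Pparg -2.90 to 0.07 and Scd2 -0.10 to 0.24, and for cKO Abcg1 -0.02 to 0.18. The cause was not tested.

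Over all genes the calls were 465 for TLI/ATS (390 to 4908 under the alternatives), 2606 for EpoR+ (1454 to 5347), 106 for spleen cKO (31 to 549), 79 for lymph node cKO (44 to 177) and 55 for the interaction (29 to 426). Precision was limited by 2 libraries per group in the TLI/ATS and EpoR sets, and by the few counts of Abca1, Lpl and Pparg in the tissue table, where the SE of their fold changes reached 1.57 on the log2 scale (Pparg, interaction).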
